A study of Mus musculus with 3 samples.

Results

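The 9 genes described here act in the defence of epithelial surfaces, and they were followed through the cells of 3 mouse pancreatic tumours. They are the luminal peroxide-making oxidase Duox2 and its partner Duoxa2, the antibody transporter gene Pigr, the antimicrobial genes Pglyrp1, Lcn2 and Saa3, the serine protease gene Prss32, and the chitinase-like genes Chil3 and Chil4. They were taken by symbol, as 9 of the 31053 genes in each count table, and they had been picked because earlier results of these data showed them at different levels between groups of cells. Their levels are therefore given as a description, with no test.

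All 3 tumours carry the same labels and form 1 group. The donor mice are labelled Msi2-Myc; R26-LSL-tdTomato, which combines a CreER driver in the Musashi2 line that turns on MYC with a red reporter. Their tdTomato-positive epithelial cells were taken 5 weeks after tamoxifen and placed in the pancreas of NSG mice, which lack mature lymphocytes and still have myeloid cells. EpCAM-positive cells of the end-stage tumours were then sequenced, with 1 library per tumour and no control tissue. The series title names several pancreatic tumour types, but the sample labels assign none of them to a tumour. The work asked if different tumour types can come out of a single pool of pre-cancer cells that have not yet committed to a fate. Whether the donors or hosts differed between libraries is not stated in the labels. A p-value therefore measures only how far differences between groups of cells vary among these 3 tumours. The spread behind it was estimated over all groups of cells in a fit, not only those compared.

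Lining epithelia of gut, airway and ducts defend their surface by secretion. DUOX2 in the apical membrane makes hydrogen peroxide and leaves the endoplasmic reticulum only with its maturation factor DUOXA2. The polymeric immunoglobulin receptor carries IgA and IgM from the tissue side to the lumen. PGLYRP1 binds bacterial cell wall peptidoglycan, and LCN2 binds the siderophores with which bacteria collect iron. SAA3 is an acute phase protein made outside the liver. CHIL3 and CHIL4 (also Ym1 and Ym2) are lectins of the chitinase family without chitinase activity, known from macrophages and neutrophils and from airway and stomach epithelium.

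The 9 genes lie at 7 places of the mouse genome (mm10), on chromosomes 1, 2, 3, 7 and 17. Chil3 (chromosome 3, 106147554 to 106167564) and Chil4 (chromosome 3, 106201490 to 106219507) are on the minus strand with 33925 bases between them. Duox2 (chromosome 2, 122279247 to 122298449, minus strand) and Duoxa2 (chromosome 2, 122298900 to 122302885, plus strand) start 450 bases apart and are read in opposite directions. Duoxa2 overlaps Duoxa1 on the other strand, and Prss32 (chromosome 17, 23843855 to 23859779) overlaps Prss41 and Gm15947 on the other strand. The sources used here do not say if reads were counted by strand, so these 2 genes could share reads with their overlapping neighbours. Pigr is on chromosome 1 (130826684 to 130852249), Lcn2 on chromosome 2 (32384633 to 32388252), and Pglyrp1 (18871331 to 18890459) and Saa3 (46711998 to 46715700) are on chromosome 7.

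The promoter windows of these neighbouring pairs are printed because both pairs are described together below. Each window is 300 bases from RefSeq (GRCm38.p6), 250 before and 50 after a start of transcription, written 5′ to 3′ on the gene's own strand. The windows are chr3:106167515-106167814 (minus) for Chil3, chr3:106219430-106219729 (minus) for Chil4, chr2:122298178-122298477 (minus) for Duox2 and chr2:122298650-122298949 (plus) for Duoxa2. Capitals mark matches, on either strand, to a TATA box (TATAAA), a STAT motif (TTCNNNGAA) or a C/EBP motif (TTGCNNAA). A forkhead motif (TGTTTAC) and an NF-kappaB motif were searched as well.
Chil3: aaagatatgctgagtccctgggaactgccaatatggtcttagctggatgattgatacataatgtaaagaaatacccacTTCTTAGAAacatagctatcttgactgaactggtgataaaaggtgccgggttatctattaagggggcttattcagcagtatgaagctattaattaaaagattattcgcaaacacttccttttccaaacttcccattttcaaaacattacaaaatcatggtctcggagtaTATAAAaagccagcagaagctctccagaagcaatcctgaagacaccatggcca
Chil4: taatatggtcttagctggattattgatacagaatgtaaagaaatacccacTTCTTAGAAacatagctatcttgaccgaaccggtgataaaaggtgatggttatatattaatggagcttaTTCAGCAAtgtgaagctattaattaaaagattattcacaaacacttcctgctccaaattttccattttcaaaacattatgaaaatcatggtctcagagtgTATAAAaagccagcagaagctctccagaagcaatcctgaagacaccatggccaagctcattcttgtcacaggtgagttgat
Duox2: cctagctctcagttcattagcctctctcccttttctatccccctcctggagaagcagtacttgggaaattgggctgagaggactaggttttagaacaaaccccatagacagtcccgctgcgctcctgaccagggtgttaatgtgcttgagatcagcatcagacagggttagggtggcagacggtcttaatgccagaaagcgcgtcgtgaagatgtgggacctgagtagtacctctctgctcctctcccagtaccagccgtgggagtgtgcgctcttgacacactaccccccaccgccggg
Duoxa2: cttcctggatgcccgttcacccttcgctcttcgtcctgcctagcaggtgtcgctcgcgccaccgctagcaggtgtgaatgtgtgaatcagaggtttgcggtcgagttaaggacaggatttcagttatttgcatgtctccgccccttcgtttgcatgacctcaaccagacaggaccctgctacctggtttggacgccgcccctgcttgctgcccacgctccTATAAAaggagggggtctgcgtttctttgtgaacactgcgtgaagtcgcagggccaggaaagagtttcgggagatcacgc

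The Chil3 and Chil4 windows were 92.3% identical over 272 aligned bases, and both held TTCTTAGAA and TATAAA. The STAT match began at -172 in Chil3 and at -200 in Chil4, counted from each RefSeq start. The Duoxa2 window held TATAAA at -30, and the Duox2 window held no match to any of these motifs. Of all 9 windows, 3 held the TATA box (Chil3, Chil4, Duoxa2), 3 the C/EBP motif (Chil4, Lcn2, Saa3), 3 the STAT motif (Chil3, Chil4, Pigr), 1 the NF-kappaB motif (Pglyrp1) and 0 the forkhead motif. Among 32851 windows of all genes these motifs were present in 13.6%, 10.8%, 8.3%, 8.46% and 3.65%, in the same order. A match is a description of the letters only.

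Values are counts of unique molecular identifiers (UMIs, one per captured RNA molecule), and a level is the UMIs of a gene per 1000000 UMIs of the cells summed (CPM). After filtering, 1431, 253 and 2804 cells remained in tumours 1, 2 and 3, with medians of 1621, 1333 and 1605.5 UMIs. Barcodes were shared between libraries. Each of the 1877, 641 and 3494 barcodes of tumours 1, 2 and 3 with at least 1000 UMIs also had at least 10 UMIs in both other libraries. This holds for the cells kept as well. Of the 641 barcodes of tumour 2, 10.2 would be shared with tumour 1 by chance. Barcodes with less than 60% of their UMIs in the library at hand were dropped, which removed 258 barcodes (50.5%) in tumour 2, 122 (7.86%) in tumour 1 and 28 (0.989%) in tumour 3. Cells with 5 or more UMIs of Ctrb1 and Clps, and few of Tff1 and Lgals4, were called acinar-gated (355, 45 and 1802 cells). Those with the reverse were called ductal-gated (393, 84 and 238 cells), and the rest stayed ungated (683, 124 and 764 cells). The 8 ductal markers summed to 15924, 15250 and 16484 CPM in ductal-gated cells and to 2072, 1829 and 2941 CPM in acinar-gated cells, and the 8 acinar markers to 205, 262 and 406 CPM in ductal-gated and 18512, 8121 and 17655 CPM in acinar-gated cells. These lists include the gate genes. The 4 epithelial markers summed to between 3084 and 4039 CPM over the cells of a tumour. The 9 myeloid markers summed to 52.6, 47.6 and 58.7 CPM over all cells and to 55.3, 51.0 and 85.1 CPM in ungated cells. Of these markers Tyrobp, Fcer1g and Adgre1 were at 0 in all 3 tumours, and Cd14 and Cd68 were above 0 in all 3. The 9 neutrophil markers summed to at most 2.53 CPM over all cells of a tumour and at most 5.32 CPM in its ungated cells.

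Duox2, which makes hydrogen peroxide at the cell surface, stood at 166, 184 and 253 CPM in the ductal-gated cells of tumours 1, 2 and 3. In acinar-gated cells it stood at 21.0, 26.6 and 23.2 CPM, and in ungated cells at 96.0, 98.1 and 81.9 CPM. Every ductal-gated value lay above every ungated value, and every ungated value above every acinar-gated one. The ductal-gated level was 7.9, 6.93 and 10.9 times the acinar-gated level. Its maturation factor Duoxa2 followed the same order: ductal-gated 164, 170 and 199 CPM, ungated 72.9, 78.5 and 72.9 CPM, acinar-gated 13.6, 6.65 and 20.1 CPM. The acinar-gated value of tumour 2 rests on 1 UMI. The mean levels of the pair in ductal-gated cells were 201 ± 46 CPM (SD, n = 3) for Duox2 and 177 ± 19 CPM (SD, n = 3) for Duoxa2. Each gene's level is per UMI at the 3′ end of its transcript, so no length enters it.

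Pigr, the carrier of IgA and IgM, was the most abundant of the 9 in ductal-gated cells, with 806, 1736 and 1594 CPM. The acinar-gated cells held 149, 233 and 177 CPM, and the ungated cells 592, 797 and 646 CPM. The lowest ductal-gated value, that of tumour 1, exceeded the highest ungated value by little, and all acinar-gated values were far below. The ductal-gated level was 5.4, 7.46 and 9.01 times the acinar-gated level. When every cell was thinned to 1000 UMIs, 48.1% (95% interval 43.1 to 53.2), 72.6% (61.8 to 81.8) and 71.0% (64.8 to 76.7) of ductal-gated cells still had a Pigr UMI. In acinar-gated cells this share was 11.8% (8.66 to 15.7), 11.1% (3.71 to 24.1) and 17.8% (16.0 to 19.6). Without thinning the shares were 66.9%, 76.2% and 88.7% against 17.5%, 20.0% and 27.1%, at medians of 1822, 1290.5 and 2484.5 UMIs against 1711, 1326 and 1593 UMIs. Intervals of shares are exact Clopper-Pearson intervals and cover counting error only.

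Pglyrp1, the peptidoglycan-binding protein, stood at 361, 567 and 560 CPM in ductal-gated cells, 43.2, 99.8 and 71.4 CPM in acinar-gated cells and 214, 279 and 285 CPM in ungated cells. The ranges of the 3 kinds of cell did not overlap, and the ductal-gated level was 8.36, 5.68 and 7.85 times the acinar-gated one. Prss32, a trypsin-family serine protease, was the least abundant of the genes that followed this order. It stood at 123, 106 and 126 CPM in ductal-gated cells, 17.3, 20.0 and 6.33 CPM in acinar-gated cells and 46.8, 39.3 and 42.0 CPM in ungated cells. Its ductal-gated values varied little between tumours (118 ± 10 CPM, SD, n = 3), while the ratio to acinar-gated cells was 7.1, 5.33 and 19.9. The ratio of tumour 2 rests on 3 acinar-gated UMIs, with a 95% counting interval of 1.51 to 28.7.

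Lcn2, the siderophore binder, showed no such order of the gates. Ductal-gated cells held 160, 368 and 723 CPM, acinar-gated cells 153, 758 and 347 CPM, and ungated cells 313, 730 and 956 CPM. Ductal-gated and acinar-gated values overlapped: the ductal-gated level was 1.05, 0.486 and 2.08 times the acinar-gated one, on average a log2 ratio of 0.03 ± 1.05 (SD, n = 3). In tumour 2 a single acinar-gated cell of 40498 UMIs held 85 of the 352 Lcn2 UMIs, and without it the acinar-gated level there was 264 CPM in place of 758 CPM. Lcn2 was lower in ductal-gated than in ungated cells in all 3 tumours, at 0.512, 0.505 and 0.756 times the ungated level. The ungated level of tumour 2 also rests on few cells, as 3 cells of 5000 or more UMIs held 83 of its 186 UMIs. In tumour 3, ungated cells with 5 or more UMIs of 6 squamous markers such as Krt5 and Krt14 (73 cells) held 646 CPM of Lcn2 and the other 691 ungated cells 1028 CPM.

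Saa3, the acute phase protein, was nearly absent from the gated cells, with 0 to 3 UMIs in the ductal-gated and 0 to 5 in the acinar-gated cells of a tumour. One ungated cell of tumour 3 held 74 of the 84 Saa3 UMIs of that tumour. It had 18 UMIs of Dcn and 5 of Col1a1, genes of fibroblast matrix proteins, and 0 of Epcam. In tumour 1, 10 of 17 Saa3 UMIs lay in 1 ungated cell with 15 Dcn UMIs and 0 Epcam UMIs. These 2 cells were small, with 2229 and 1001 UMIs, and the Saa3 level of tumour 3 without its cell was 1.32 CPM in place of 11.1 CPM. The 5 fibroblast markers were all at 0 in the ductal-gated cells of every tumour.

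**Figure D1:**
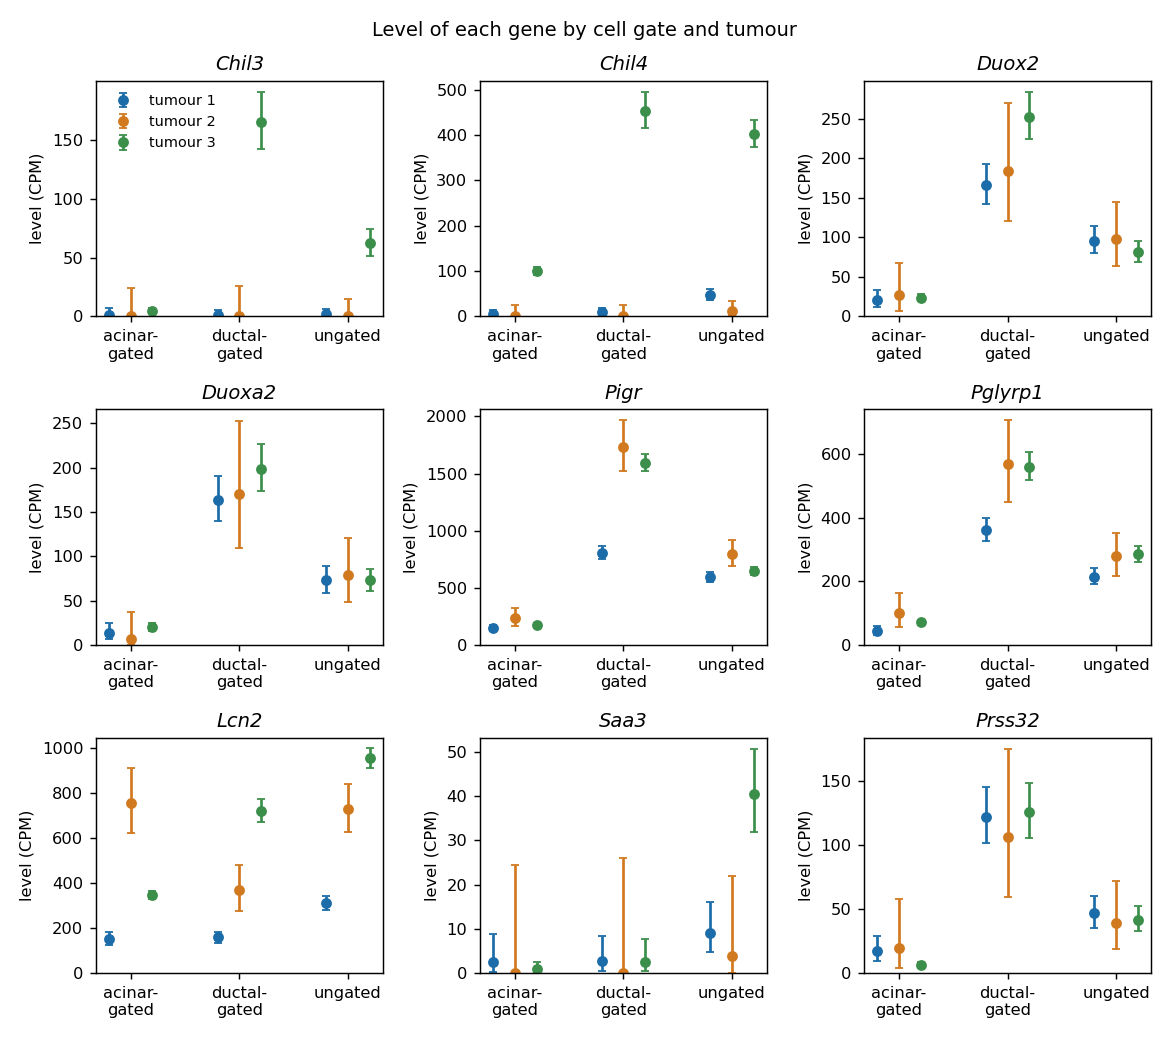
Level of each of the 9 genes (CPM, linear axes from 0) in acinar-gated, ductal-gated and ungated cells, 1 point per tumour with its exact Poisson 95% interval. Duox2, Duoxa2, Pigr, Pglyrp1 and Prss32 show the ductal-gated points above all others, Lcn2 overlaps between gates, and Chil3 and Chil4 are high in tumour 3.

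The plot of levels by gate shows the ductal-gated levels above the acinar-gated levels for 5 genes. Of the 7 genes that passed the filter on low counts, Pigr, Duox2, Duoxa2, Pglyrp1 and Prss32 (5) had every ductal-gated level above every acinar-gated level. Among all 8470 genes that passed, 18.7% did so. The set was chosen from cell groups like these, so nothing is read from that difference. The share of all genes whose ungated levels also lay between the other 2 was not computed, so nothing is read from that order either. Chil3 and Saa3 did not pass, and Lcn2 and Chil4 overlapped. Summed over the 9 genes, ductal-gated cells held 1792, 3132 and 4075 CPM and acinar-gated cells 407, 1144 and 751 CPM, a log2 ratio of 2.01 ± 0.51 (SD, n = 3). With the barcodes shared between libraries kept, the log2 ratio was 2.09, and those of Duox2, Duoxa2, Pigr, Pglyrp1 and Prss32 were 3.35, 3.96, 2.91, 3.02 and 3.70, compared with 3.07, 3.86, 2.83, 2.85 and 3.18 without them.

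Some cells held UMIs of several of the genes at once. After thinning to 1000 UMIs, 11.2%, 17.9% and 29.8% of ductal-gated cells had UMIs of 3 or more of the 9 genes, compared with 0.845%, 4.44% and 1.61% of acinar-gated cells. None of the 9 was seen in 24.9%, 9.52% and 7.14% of ductal-gated cells and in 71.0%, 73.3% and 54.3% of acinar-gated cells. The shares expected if each gene were detected independently were not computed, so these values do not show that the genes go together in a cell. Among the ductal-gated cells with 5000 or more UMIs, the Spearman correlation of Duox2 with Duoxa2 was 0.22 in tumour 1 (27 cells) and 0.52 in tumour 3 (50 cells). Pigr and Pglyrp1 correlated at 0.43 and 0.25. Some pairs were negative in 1 or both tumours. Lcn2 with Prss32 was at -0.37 and -0.16, Duox2 with Prss32 at -0.23 and 0.21, and Duox2 with Lcn2 at 0.17 and -0.21. In tumour 3 Chil3 with Duox2 was at -0.24 and Chil3 with Chil4 at 0.42. The UMIs of a gene were divided by all UMIs of the cell before ranking, and any remaining part of depth was not tested. Cells of 1 tumour share their library, so these are descriptions with no p-value.

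RNA outside cells was read from barcodes of 10 to 100 UMIs. Pglyrp1 stood apart there: it was at 643, 837 and 852 CPM in this free RNA and at 219, 304 and 197 CPM in the cells, a ratio of 2.94, 2.75 and 4.32. Of 4836 genes at 20 CPM or more in every tumour, 46 others (0.951%) had ratios as high in all 3 tumours, and 922 (19.1%) were above 1 in all 3. Pigr was at 0.545, 0.370 and 0.425 times its level in cells, and Duox2 at 0.453, 0.312 and 0.356 times. The Pglyrp1 level of acinar-gated cells (43.2 to 99.8 CPM) was below its level in free RNA, and the ductal-gated level (361 to 567 CPM) was too. The part of free RNA in the Pglyrp1 values was not tested.

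Chil3 and Chil4 were seen mostly in tumour 3, where Chil3 was found in 47 and Chil4 in 245 of 2804 cells, with most of their UMIs in few of these. Chil3 UMIs numbered 5, 0 and 326 in tumours 1, 2 and 3, and Chil4 UMIs 77, 3 and 1723. In tumour 2 the absence of Chil3 allows a level of up to 5.49 CPM (3 counts), compared with 43.0 CPM measured in tumour 3. In tumour 3 Chil4 stood at 453 CPM in ductal-gated, 99.4 CPM in acinar-gated and 403 CPM in ungated cells, and Chil3 at 165, 5.02 and 62.2 CPM. Tumours 1 and 2 held at most 47.6 CPM of Chil4 in any of the 3 kinds of cell. That highest value, of the ungated cells of tumour 1, rests largely on 1 cell, which held 38 of its 62 UMIs. Without its own richest cell, the acinar-gated value of tumour 3 was 44.7 CPM.

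One ductal-gated cell of tumour 3 carried much of this. It had 29834 UMIs, among them 169 of Chil3 (51.8% of the Chil3 UMIs of the tumour), 394 of Chil4 (22.9%) and 121 of Ctla2a, a cathepsin inhibitor gene. It passed the ductal gate on 12 Lgals4 UMIs with 0 of Tff1, and its share of mitochondrial UMIs, 19.4%, was near the limit of 20%. Without it the ductal-gated level of Chil3 in tumour 3 was 15.5 CPM in place of 165 CPM, and that of Chil4 107 CPM in place of 453 CPM. The cell with the second-highest total was acinar-gated, with 251 UMIs of Chil4, 0 of Chil3 and 49 of Krt19.

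In tumour 3, 24 cells had 10 or more UMIs of the pair, and 1 cell did in tumour 1 and 0 in tumour 2. Of the 24, 15 were ungated, 6 ductal-gated and 3 acinar-gated. All 24 had a UMI of Epcam or Krt19, epithelial genes, and 0 had a UMI of Tyrobp, Ptprc or Lyz2, genes of myeloid cells and other leukocytes. The other 2780 cells of tumour 3 held 0, 3 and 3 UMIs of these genes, so their absence does not set the 24 cells apart. Cd14 and Cd68 were not counted in the 24 cells. Chil4 exceeded Chil3 in all 24, and 6 had no Chil3 UMI. Summed over these cells Tff1, the gastric-type trefoil factor of the ductal gate, stood at 124 CPM compared with 1213 CPM in the other cells of tumour 3, and 20 of its 21 UMIs lay in 1 of the 24 cells. Ctrb1 of the acinar gate was lower as well, at 519 compared with 6560 CPM. Krt19 stood at 3276 compared with 1747 CPM, Lcn2 at 1369 compared with 536 CPM, and Pigr at 956 compared with 493 CPM. Pglyrp1 stood at 277 compared with 195 CPM and Prss32 at 76.7 compared with 32.0 CPM. Duox2 stood at 35.4 compared with 72.7 CPM and Duoxa2 at 47.2 compared with 59.99 CPM, on 6 and 8 UMIs. The median depth was 4228.5 UMIs compared with 1601 UMIs, and the cells were picked for these counts, so these levels are descriptions.

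**Figure D2:**
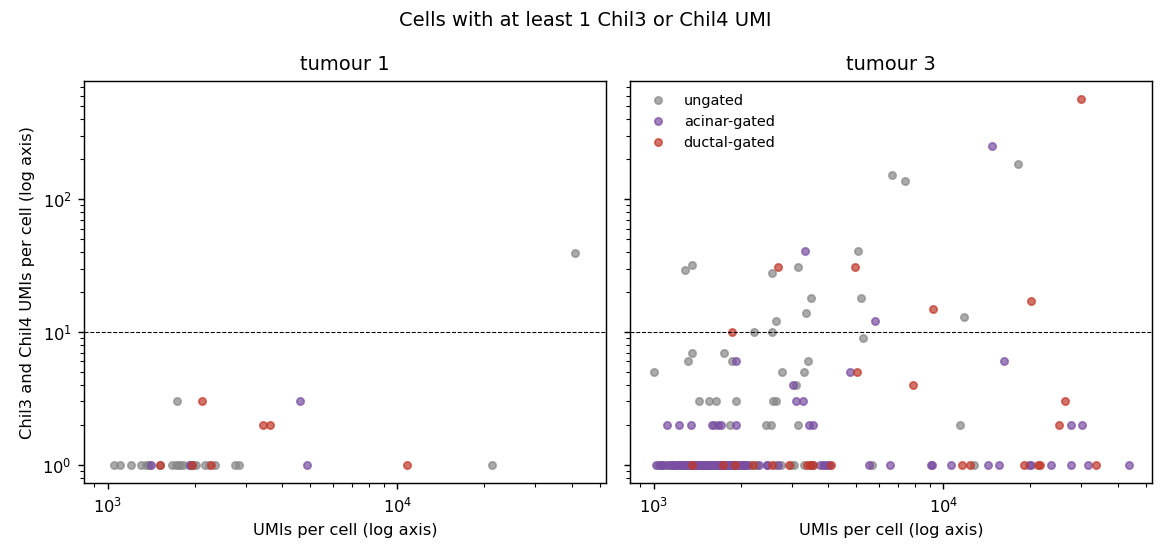
Chil3 and Chil4 UMIs per cell against all UMIs of the cell (both log axes) for cells with at least 1 such UMI in tumours 1 and 3, coloured by gate, with a dashed line at 10 UMIs. Tumour 3 has 24 cells at or above the line, in all 3 kinds of cell, and tumour 1 has 1; tumour 2, with 1 such cell below the line, is not drawn.

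The plot of UMIs per cell shows the sum of the pair. The printed promoters were alike, and the transcripts of Chil3 and Chil4 were 94.3% identical over 1540 aligned bases. Over the last 500 bases, where 3′ reads fall, identity was 91.8%, and 8.78% of the 91-base words of Chil3 there also occurred in Chil4. Reads from shared stretches cannot be assigned to either gene, so the split between them is less certain than their sum. Summed, the pair stood at 26.0, 5.49 and 270 CPM over the cells of tumours 1, 2 and 3.

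**Figure D3:**
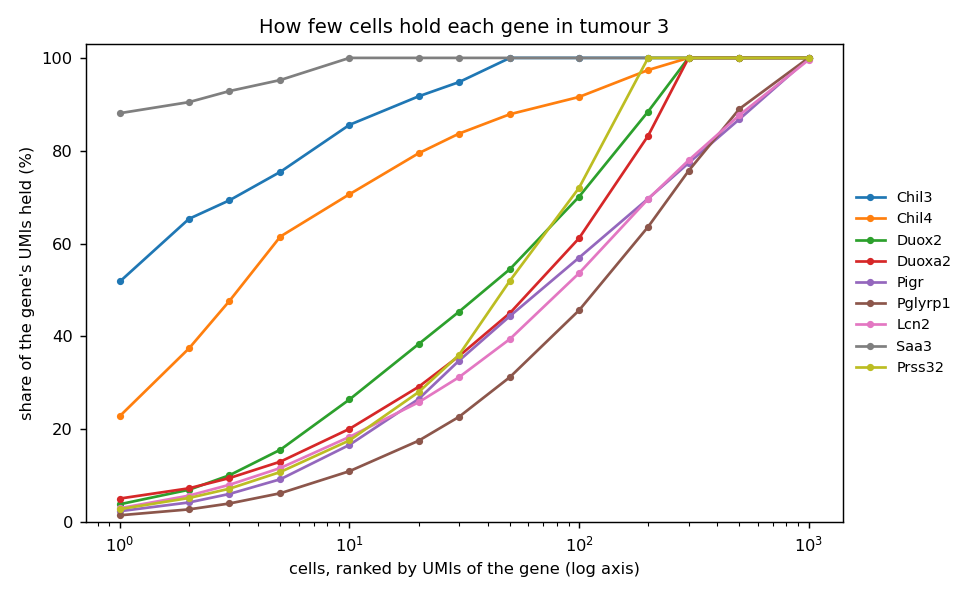
Share of each gene's UMIs in tumour 3 (%) held by the cells with most UMIs of that gene, from 1 to 1000 cells (log axis), 1 line per gene. The lines of Saa3, Chil3 and Chil4 begin at 88.1%, 51.8% and 22.9% for 1 cell, and those of the other 6 genes between 1.47% and 5.08%.

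As the plot of cumulative shares shows, Pigr, Pglyrp1, Lcn2, Duox2, Duoxa2 and Prss32 were spread over many cells of tumour 3. A share of 50% of the UMIs was held by 69, 121, 86, 39, 62 and 48 cells, respectively. For Chil4 it was held by 4 cells, and for Chil3 and Saa3 by 1 cell each. In tumour 2, 3 cells held 50% of the Lcn2 UMIs.

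Depth gave different orders for different genes. Ductal-gated cells with 5000 or more UMIs (27 and 50 cells in tumours 1 and 3) were set against those below 5000 UMIs (366 and 188 cells), and tumour 2, with 3 deep cells, was left out. Duox2 was at 207 compared with 146 CPM in tumour 1 and 301 compared with 174 CPM in tumour 3, which is 1.41 and 1.73 times. Duoxa2 was at 141 compared with 174 CPM and 179 compared with 230 CPM, 0.807 and 0.780 times. Its 95% counting intervals were 0.564 to 1.14 and 0.595 to 1.03, and those of Duox2 were 1.03 to 1.93 and 1.32 to 2.29. These intervals take UMIs as independent and leave out the spread between cells, so they are not a test. After thinning to 1000 UMIs, 11.1% of deep and 12.8% of shallow cells of tumour 1 had a Duox2 UMI, and 26.0% and 12.8% in tumour 3. Prss32 was lower in the deep cells of both tumours, at 0.569 and 0.590 times, and Pglyrp1 at 0.667 and 0.492 times. Pigr was at 0.935 and 1.21 times and Lcn2 at 2.00 and 0.806 times, so neither had the same direction in both tumours.

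Without the deep cell of tumour 1 that held 20 of its 69 Duox2 UMIs, and without the highest shallow cell, Duox2 was at 170 compared with 141 CPM there. Chil4 was at 0.236 times in tumour 1 (95% counting interval 0.00539 to 1.71, from 1 and 9 UMIs) and at 4.09 times in tumour 3. Without the single richest cell on either side, Chil4 in tumour 3 was at 75.9 in deep and 90.3 CPM in shallow cells, and Chil3 at 1.49 and 7.09 CPM. Of 8 genes that passed the filter, only Duox2 was higher in the deep cells of both tumours, and among all 8548 genes 46.6% were. The share of all genes lower in both was not computed, so nothing is read from the direction of Duoxa2, Pglyrp1 and Prss32. Summed over the 9 genes, the log2 ratio was 0.03 ± 0.17 (SD, n = 2), and -0.24 without the richest cell of each gene.

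Around the threshold itself, ductal-gated cells of 3000 to 5000 UMIs and of 5000 to 8000 UMIs were compared with no test. In tumour 3 (44 and 14 cells) Duox2 was at 201 and 262 CPM, Pigr at 1489 and 2072 CPM and Lcn2 at 857 and 626 CPM. In tumour 1 (37 and 13 cells) Duox2 was at 112 and 166 CPM and Pigr at 924 and 854 CPM. Duoxa2 there was at 119 and 12.7 CPM, the second value on 1 UMI.

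**Figure D4:**
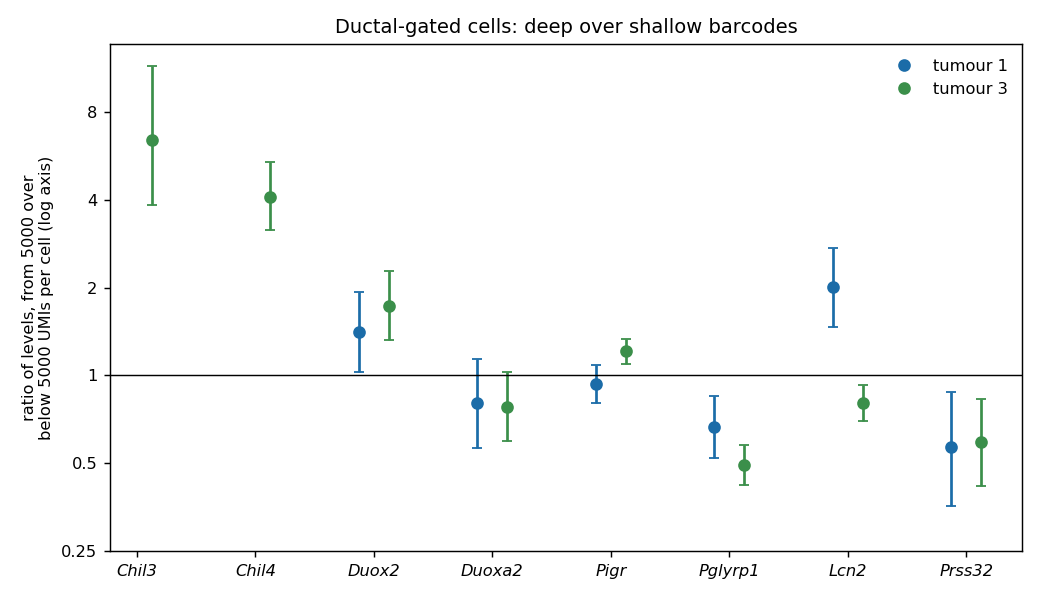
Ratio of the level in ductal-gated cells of 5000 or more UMIs to that in cells below 5000 UMIs (log axis), 1 point per gene in tumours 1 and 3 with its exact 95% counting interval; ratios with 3 or fewer UMIs on a side, and Saa3, are not drawn. Duox2 lies above 1 and Duoxa2, Pglyrp1 and Prss32 below 1 in both tumours. The share of all genes below 1 in both was not computed.

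The likeness of other genes was measured over 15 sums of cells (tumour, gate and depth class), as Pearson's r of log2(CPM + 10) among 5577 genes. These sums share libraries and gates, so r is a description. Duox2 was most like Golm1 (0.97), Tspan8 (0.97) and Ahcyl2 (0.97). Pigr was most like Muc13 (0.98), a membrane mucin, Tmprss2 (0.96), a surface serine protease, and Smpdl3a (0.96). Prss32 was most like Cbr1 (0.96), Muc1 (0.95) and Vsig2 (0.94). Duoxa2 was most like Sri (0.98), Plscr1 (0.97) and Npnt (0.97), and Pglyrp1 most like Serinc2 (0.97), Capg (0.96) and Sri (0.96).

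Within the set, Duox2 and Duoxa2 correlated at 0.95, Duox2 and Pigr at 0.96, and Duoxa2 and Pglyrp1 at 0.95. Lcn2 was closer to Chil4 (0.78) and Chil3 (0.69) than to Duox2 (0.29), and outside the set it was most like Dynll1 (0.86), Tbc1d1 (0.84) and Nxf1 (0.83). Chil4 was most like Cebpd (0.88), a C/EBP transcription factor gene, Hspa1a (0.87) and Coq10b (0.87). Chil3 correlated with Chil4 at 0.82 and, outside the set, was most like Akr1b3 (0.80), Dbi (0.79) and Psmd10 (0.78). The highest r with Saa3 was 0.49, for Nsmce1.

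Close relatives of the 9 genes were nearly absent. Duox1 had 4 UMIs in all and Duoxa1 21 UMIs, Saa1 had 0 and Saa2 1, and Chia1, the acidic chitinase gene, had 0. Chil1, a further chitinase-like gene, had 15, 6 and 37 UMIs in tumours 1, 2 and 3.

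Other genes of mucosal defence, 127 in 8 lists set by function, were read from a fit over all genes. Of these, 67 passed the filter on low counts, and 41 were higher and 6 lower in ductal-gated than in acinar-gated cells (edgeR's quasi-likelihood test, Benjamini-Hochberg adjusted p at most 0.05). Among all 8470 genes tested, 18.4% were higher and 16.9% lower. The median log2 difference was 0.95 over the 67 genes and 0.01 over all genes. Leaving out tumour 3, the count of higher genes fell to 21 of 51 tested. The lists were drawn up with earlier results of these data known, so the counts describe these genes and do not stand for lists chosen blind.

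Of 7 tested genes of other NADPH oxidases and of enzymes that use peroxide, 5 were higher in ductal-gated cells and 0 lower. Cyba, the membrane subunit of phagocyte-type NADPH oxidases, stood at 470 ± 26 CPM in ductal-gated and 115 ± 25 CPM in acinar-gated cells (SD, n = 3), higher in all 3 tumours (log2 1.83 ± 0.15 SE, edgeR adjusted p = 1.02e-13). Noxo1, an organiser subunit of the NOX1 oxidase, was higher by a log2 difference of 2.51 ± 0.38 (edgeR adjusted p = 6.38e-07), although without tumour 3 its adjusted p was 0.126. Gpx1, which removes hydrogen peroxide, was higher by 1.37 ± 0.14 (edgeR adjusted p = 8.27e-11).

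Of the list around antibody transport, 5 of 6 were higher. Mal2, a transcytosis protein, stood at 304 ± 71 compared with 142 ± 52 CPM (SD, n = 3; edgeR adjusted p = 5.78e-09). Ccl28, a chemokine that draws IgA-making plasma cells, was higher at a low level, 18.4 ± 2.4 compared with 3.03 ± 2.65 CPM (SD, n = 3; edgeR adjusted p = 0.000872). Il1rn, which blocks the interleukin-1 receptor and is not itself a transport gene, was higher by a log2 difference of 1.52 ± 0.27 (edgeR adjusted p = 9.81e-06).

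The antimicrobial and acute phase list was split, with 5 of 10 higher and 4 lower. Ltf, lactoferrin, which binds iron as LCN2 binds siderophores, stood at 84.2, 170 and 381 CPM in ductal-gated cells and at 18.5, 26.6 and 47.6 CPM in acinar-gated cells (log2 2.69 ± 0.19 SE, edgeR adjusted p = 6.21e-16). Reg3a, a C-type lectin, went the other way with 4.79, 49.6 and 20.4 CPM in ductal-gated and 726, 778 and 1343 CPM in acinar-gated cells (log2 -6.14 ± 0.24 SE, edgeR adjusted p = 1.34e-24). Cp, ceruloplasmin, was lower by a log2 difference of -1.78 ± 0.34 (edgeR adjusted p = 3.62e-05), but not by DESeq2's Wald test (adjusted p = 0.118). It was lower in tumours 1 and 3 and higher in tumour 2, at 35.4 compared with 13.3 CPM.

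The list of surface proteases beside Prss32 also holds the protease inhibitors Spint1 and Spint2. Of 8 tested, 6 were higher and 0 lower, and Spint2 was among the 6. Tmprss2 stood at 135 ± 16 compared with 12.9 ± 1.0 CPM (SD, n = 3; edgeR adjusted p = 1.87e-17), while Prss22 and Tmprss4 were higher by log2 differences of 1.61 and 1.25. The adjusted p of Tmprss4 was 0.0979 without tumour 3, and that of Prss22 was 0.103 without the tumour term (edgeR). Of the mucin list 7 of 8 were higher, led by Fcgbp (log2 3.39 ± 0.28 SE), Agr2 (3.35 ± 0.24) and Muc13 (3.28 ± 0.27), a mucus-binding protein, a mucin-folding enzyme and a membrane mucin. Of 14 genes that sense microbes 4 were tested, and 3 were higher: Naip1 (log2 3.70), Tlr3 (1.97) and Cd14 (1.42). Cd14 was not called without tumour 3 (edgeR adjusted p = 0.149). Naip1 and Tlr3 stood at 0.946 ± 1.64 and 2.13 ± 1.99 CPM in acinar-gated cells (SD, n = 3), so their log2 differences rest on low levels there. Cd14 also stands in the myeloid list, which summed to 63.2, 49.6 and 113 CPM in ductal-gated and 34.5, 39.9 and 34.5 CPM in acinar-gated cells. Tyrobp, Fcer1g and Adgre1 of that list were at 0 in both.

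Among 23 tested genes of NF-kappaB and IL-17, IL-22 and IL-6 signalling, 10 were higher and 2 lower. Il18, an epithelial cytokine, stood at 108 ± 33 compared with 14.3 ± 5.7 CPM (SD, n = 3; edgeR adjusted p = 9.42e-16). The receptor genes Il1r1 and Il17re were higher by log2 differences of 3.09 ± 0.58 and 2.71 ± 0.48 (edgeR adjusted p = 2.92e-05 and 1.04e-05). These rest on low acinar-gated levels, 1.26 ± 1.23 and 1.91 ± 1.71 CPM (SD, n = 3). The 2 lower genes were the receptor gene Il17ra (log2 -1.48) and Cebpb (log2 -0.55), which lie outside the rule for named genes and were named after their values were seen. The 1 tested gene of the chitinase list was not called either way.

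**Figure D5:**
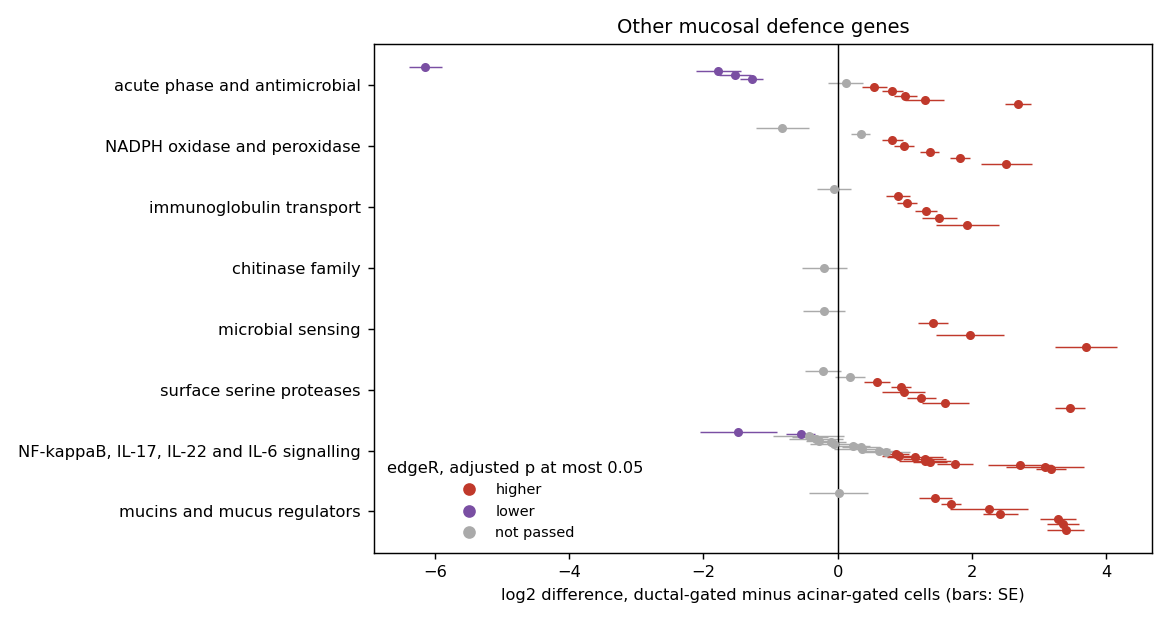
Log2 difference between ductal-gated and acinar-gated cells for the 67 tested genes of 8 defence lists, 1 point per gene with its SE, coloured by the edgeR call at an adjusted p of 0.05. In the mucin, protease, oxidase and antibody transport lists no gene is called lower, and the acute phase list has 4 genes called lower, with Reg3a at -6.14.

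The same list genes were then compared by depth within ductal-gated cells. The fit estimated the spread of a gene from 15 sums of all 3 kinds of cell, with 7 residual degrees of freedom. Deep ductal-gated sums came from tumours 1 and 3 only. Of 69 list genes tested, 0 were higher and 8 lower in cells of 5000 or more UMIs (edgeR's quasi-likelihood test, adjusted p at most 0.05), compared with 3.23% higher and 7.15% lower among all 8548 genes. At an unadjusted p of 0.05, 2 were higher and 11 lower, and DESeq2's Wald test called 0 higher. The 8 were Cyba, Gpx1, Gpx2, Lrg1, Wfdc2, Rab25, Muc1 and St14. Cyba stood at 240 and 336 CPM in the deep cells of tumours 1 and 3 and at 539 and 690 CPM in the shallow cells (log2 -1.29 ± 0.18 SE, edgeR adjusted p = 1.92e-06). St14, matriptase, was lower by a log2 difference of -1.29 ± 0.27 and Rab25, a recycling endosome GTPase, by -1.02 ± 0.19 (edgeR adjusted p = 0.000899 and 0.000218). Without the tumour term 2 list genes were called lower. Without tumour 1 or tumour 3 the difference rests on 1 tumour, and 5 and 7 list genes were called lower, with Gpx2, St14 and Wfdc2 among those lost without tumour 1. The part of depth itself, of cell size and of RNA quality in these differences was not tested.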

How the data were processed

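Single-cell libraries of 3 tumours were read as raw UMI counts per gene and barcode. The deposited counts were made by the authors with Cell Ranger 3.0.2, per the file headers, and list every possible barcode. The submitters' processing notes name Cell Ranger 3, mm10 and Seurat 3.1, and the sources used here do not name the annotation. The totals were 11502184, 9737397 and 16521484 UMIs, and no cell calls or cell types were taken from the authors. The 9 genes and all lists were chosen with earlier results of these data known.

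Cells were kept with 1000 or more UMIs, 500 or more genes, at most 20% mitochondrial UMIs and 60% or more of a barcode's UMIs over the libraries in 1 library. A gate needed 5 UMIs of its pair of genes and 80% of the UMIs of the 4 gate genes. Scrublet (scanpy 1.11.5) called 4, 2 and 0 cells as doublets, too few to rely on, and none were removed; leaving out the 5% with the highest scores was an alternative. CPM values were computed here with exact Poisson intervals at 95%, which like the intervals of shares cover counting error only. A level of a gene not detected is bounded by 3 counts.

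Counts were summed per tumour, gate and depth class (sums of 10 or more cells) and fitted over all genes with edgeR 4.0.16 (R 4.3.3; filterByExpr, TMM, quasi-likelihood test, tumour as a block, Benjamini-Hochberg adjustment, threshold 0.05). Each fit held the sums of ductal-gated, acinar-gated and ungated cells together, which shared 1 estimate of the spread. There were 9 sums and 4 residual degrees of freedom by gate, and 15 sums and 7 by depth. Gates of 1 tumour come from 1 animal, which is the source of the pairing. The correlation of ductal-gated and acinar-gated deviations over 3609 genes was 0.29, 0.06 and 0.41 within tumours 1, 2 and 3, and between -0.37 and 0.10 across tumours. DESeq2 1.42.0 was an alternative. On simulated counts the gate comparison recovered 54% of genes changed 2-fold and 87% of those changed 4-fold (8298 genes). The depth comparison recovered 30% and 89% (8041 genes). Before the changes, each simulated gene had 1 mean over all sums, with 1 dispersion shared by all genes and no tumour effect. The real counts differ in this, so these shares need not hold for them. From each list at most the 3 genes with the largest change past the threshold in a comparison were named, with all 9 genes, their relatives and the 3 most alike genes of each. Positions are from GENCODE (mm10), and all 9 promoter windows were found in RefSeq.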

Additional observations from a re-analysis of the deposited data

Results flagged for a closer look

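Barcodes with 1000 or more UMIs that failed the filter on genes or mitochondrial share enter no comparison, and the 9 genes were seen in them. Summed, the 9 genes stood at 1340.44 CPM in 324 such barcodes of tumour 1, 2832.13 CPM in 130 of tumour 2 and 2016.75 CPM in 662 of tumour 3. A count of 0 would allow at most 3.55, 8.35 and 1.73 CPM there.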

How the results depend on the processing

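With 1 tumour left out in turn, the 1560 higher and 1430 lower genes of ductal-gated cells against acinar-gated cells became 708 to 1657 and 468 to 1525, and the 41 and 6 list genes became 21 to 42 and 3 to 6; the lowest counts were without tumour 3, on fewer sums. Of the 276 higher and 611 lower genes by depth, 70 to 187 and 258 to 646 were called, of list genes 0 to 1 and 5 to 9, and the summed level lay between -0.09 and 0.15 (log2). Without the replicate block the counts by gate were 1002 and 767, those by depth 32 and 170, and 2 list genes were lower by depth. Requiring 5 UMIs in every sum, which tests fewer genes, gave 716 and 673 by gate, 17 list genes higher by gate, 407 lower by depth and 2 list genes higher by depth. DESeq2's Wald test gave 894 lower genes and 3 lower list genes by gate and 152 higher by depth. Higher genes by depth numbered 180 with barcodes below 60% in their library kept and 109 with a higher minimum of UMIs per cell. They numbered 417 with a gate of 3 UMIs and 60% and 181 with depth classes split at 3000 UMIs. Sums of 3 cells, chosen after seeing the data, gave 156. List genes higher by depth numbered 3 with the gate of 3 UMIs and 1 with that of 10. The summed level by depth (log2 0.03) was 0.20 with the gate of 3 UMIs and, chosen after seeing the data, -0.24 without the richest cell of each gene. Reversed were Chil4 by gate (-0.074, gate of 10 UMIs), Chil3 by depth (-2.25 without the richest cell), and Saa3 (-0.71) and Chil1 (0.53) by depth at 3000 UMIs. The causes were not tested. The summed level by gate lay between 1.80 and 2.45 under every alternative run for it. Tumour 2, with 253 cells, limits every value that needs 3 tumours.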
